A study of Glycine max with 12 samples.

Results

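Nitrate reductase and nitrite reductase carry out the 2 successive reductions by which a plant turns nitrate into ammonium, and their transcripts were followed here with 6 array probes of soybean. The 6 members, of 42748 probes that are not controls, are those whose descriptions in the study's list of probesets raised by nitrate in these roots name either enzyme. There are 3 for nitrite reductase (BG155089.1_555, GMFL01-08-I05-R_317 and GMFL01-12-C15-R_181) and 3 for nitrate reductase (BF069531.1_458, BU927103.1_508 and GMFL01-21-N18-R_440). Because that list was drawn up from the same arrays, a rise of the members in roots is not independent of how they could be recognised, and probes of these enzymes outside the list were not identified here. BU927103.1_508 is described as the nitrate reductase BCNR-A and GMFL01-21-N18-R_440 as the inducible nitrate reductase INR1. In the RefSeq gene table of assembly Glycine_max_v4.0 both names are synonyms of 1 gene, INR2, and no probe accession matched a transcript of that table, so which gene copy each probe reads is not known. Probes of 1 enzyme may read the same transcript and are not replicates.

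Soybean plants of the cultivar Nourin No. 2, inoculated with Bradyrhizobium diazoefficiens USDA110 and grown in aerated solution free of nitrogen, received either 5 mM nitrate or the same solution without nitrogen for 24 h from day 19 after planting. The 4 groups were control roots, nitrate roots, control nodules and nitrate nodules, with 3 arrays each. Roots were the lower part of the root system that bore no visible nodules, and nodules were those wider than 3 mm from the upper part. Each array was hybridised with RNA pooled from 3 plants, so the spread between arrays is that between pools. Whether root and nodule pools of the same number came from the same plants is not given in the sources used here.

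Nitrate reductase works in the cytosol, where it passes electrons from NADH or NADPH through flavin, heme and a molybdenum cofactor to nitrate and releases nitrite. Nitrite is toxic and moves into plastids, where nitrite reductase reduces it to ammonium with electrons from ferredoxin, using an iron-sulfur cluster and siroheme. In roots, which have no photosynthetic electron flow, ferredoxin is reduced by ferredoxin-NADP reductase with NADPH from the oxidative pentose phosphate pathway. Transcripts of both enzymes are known to be inducible by nitrate in plant roots, and legumes also have nitrate reductase activity in nodules.

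Signals were scaled so that each array averaged 2500 over the probes that are not controls, and all levels given are these scaled signals, which have no absolute unit. Signals of different probes cannot be ranked against each other, so levels are compared between groups within a probe only. Between 79.2% and 84.5% of probes per array were well above background, and no member spot was saturated or marked as an outlier. Scaling left control root array 2 with the lowest 75th percentile of the root arrays (1143.9, where the other 5 had 1400.0 to 1587.2). Of the 3 slides, slide 1 held control root array 1 and the 3 nitrate root arrays, slide 2 held control root arrays 2 and 3 and nitrate nodule arrays 1 and 2, and slide 3 held the control nodule arrays and nitrate nodule array 3. Within a treatment the organs never met on 1 slide, so an organ difference can be set apart from the slide only through other groups. Without nitrate these are the other groups on slides 2 and 3. Under nitrate the link runs through the control roots on slides 1 and 2, with only control root array 1 on slide 1. A fit of all 12 arrays with the slide as a block, added after the data were seen, was used for this. The nodule marker nodulin-21 (AW203733.1_45) read 33680 to 36490 in control nodules and 54360 to 73060 in nitrate nodules. It also read 13310 to 14370 in control roots and 2521 to 7830 in nitrate roots, so this marker was lower in the roots than in the nodules but not absent from them. The marker's signal also differed between treatments within each organ, so it gives no share of nodule RNA in the roots. That share was not tested. In RNA pooled from whole organs, a change in the share of cells that express a gene and a change in RNA per cell cannot be told apart.

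All 3 nitrite reductase probes were lowest in control roots, higher in nodules of either treatment, and highest by far in nitrate roots. For GMFL01-08-I05-R_317, the control root arrays read 114.9, 96.66 and 123.0, and the nitrate root arrays 57390, 58830 and 64400. The same probe read 2030, 2263 and 1981 in control nodules and 2576, 2595 and 2607 in nitrate nodules. No array of any group overlapped with an array of another group for this probe. For GMFL01-12-C15-R_181, the signals were 137.0, 164.8 and 151.1 in control roots and 33510, 32710 and 33510 in nitrate roots. Its nodule signals were 1671, 1690 and 1589 without nitrate and 1752, 1741 and 1796 with it. The nodule groups of this probe were separate but lay within 1.07-fold of each other by their means. Control roots read BG155089.1_555 at 2.444, 3.179 and 2.155, not well above background in any of the 3, and nitrate roots at 3519, 3307 and 3655. Its control nodules read 95.12, 106.1 and 81.26, and its nitrate nodules 100.7, 113.2 and 113.5. For this probe the nodule groups overlapped.

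The nitrate reductase probes were arranged in the same order of groups, with nodules closer to the level of nitrate roots. BF069531.1_458 read 29.27, 113.7 and 17.75 in control roots and 3991, 3950 and 5484 in nitrate roots. In nodules it read 491.8, 556.4 and 523.9 without nitrate and 636.5, 647.9 and 729.2 with it. The control root arrays spanned a wide range, yet the highest of them stayed below every nodule array. The BCNR-A probe BU927103.1_508 read 250.8, 906.5 and 123.2 in control roots and 27360, 26140 and 32470 in nitrate roots. Its nodule signals were 7531, 8161 and 8382 in controls and 10050, 9831 and 12550 under nitrate. The lowest nitrate nodule array of this probe was above the highest control nodule array. The INR1 probe GMFL01-21-N18-R_440 gave 967.6, 3160 and 533.1 in control roots and 73400, 82520 and 98480 in nitrate roots. It gave 19760, 21770 and 21850 in control nodules and 27530, 24540 and 29890 in nitrate nodules. The 4 groups of the INR1 probe did not overlap either.

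**Figure D1:**
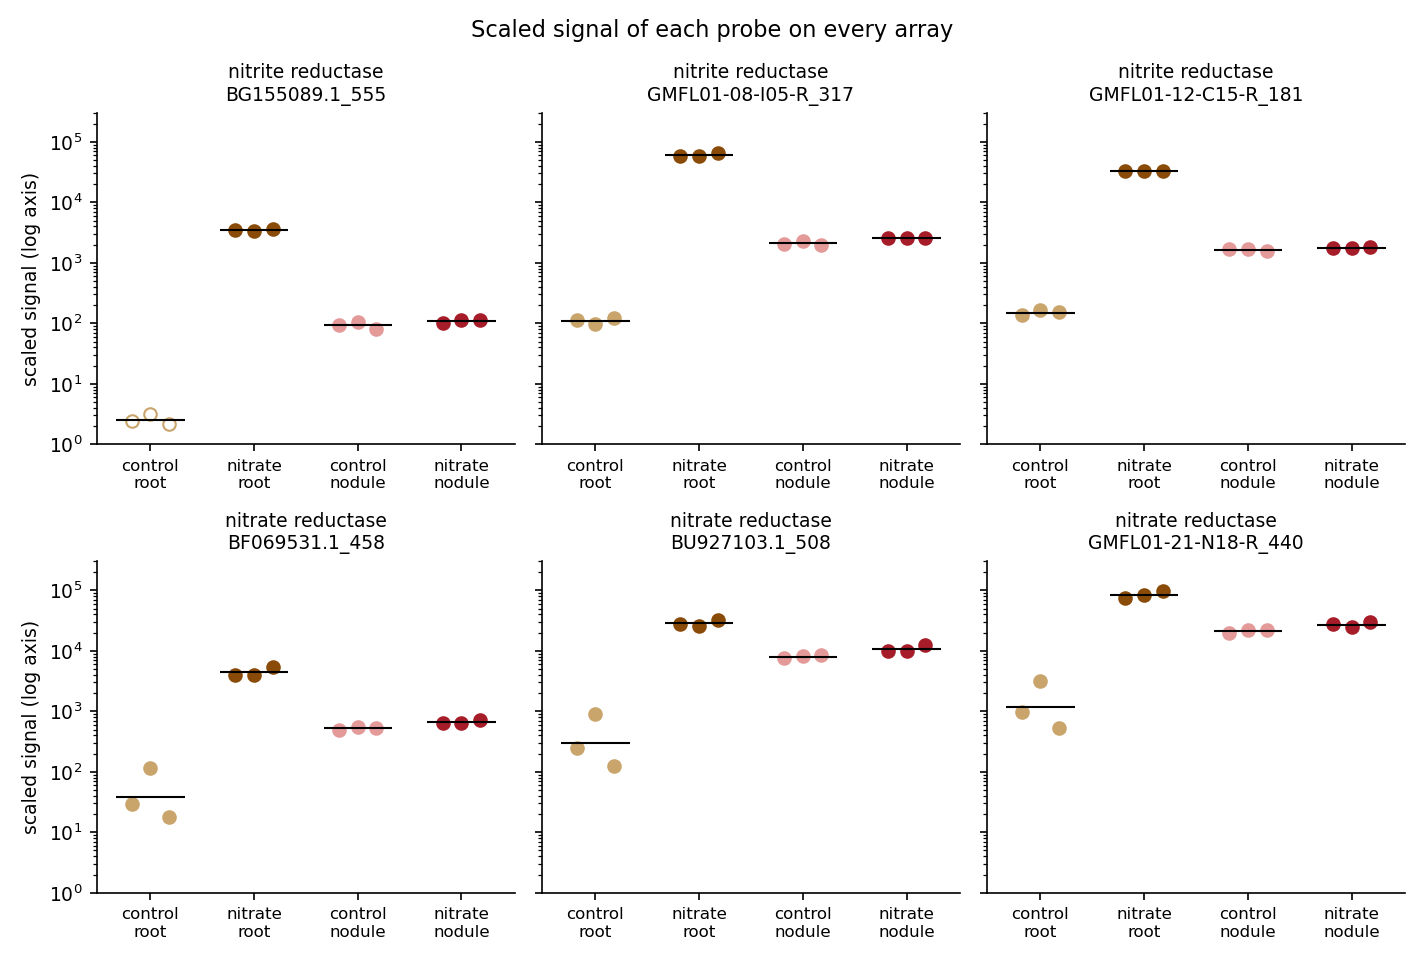
Scaled signal (log axis) of the 6 probes on every array, by group; points are arrays 1 to 3 from left to right, lines are the means of the log2 signals, and open points are not well above background. Every probe was lowest in control roots and highest in nitrate roots, and the nitrate reductase probes were spread widely over the control root arrays.

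Without nitrate, the 3 nitrite reductase probes stood in nodules at 2.70%, 3.47% and 4.96% of their own mean in nitrate roots. The nitrate reductase probes stood in the same nodules at 11.7% (BF069531.1_458), 28% (BU927103.1_508) and 24.9% (GMFL01-21-N18-R_440) of theirs. Under nitrate the nodule shares were 3.12% to 5.30% for nitrite reductase and 15% to 37.7% for nitrate reductase. Nodules thus held a larger part of the nitrate-root signal for each nitrate reductase probe than for any nitrite reductase probe. Control roots held 1.20% to 1.83% of the nitrate-root signal for nitrate reductase, or 0.525% to 0.885% without the second control root array, 0.185% and 0.454% for GMFL01-08-I05-R_317 and GMFL01-12-C15-R_181, and were at background for BG155089.1_555.

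In roots, 24 h of nitrate raised all 6 probes (limma, adjusted p from 4.7e-06 to 0.0049), where 0.854% of the 33951 probes tested were raised, or 7.0% with the replicate number as a block. This count is given as a description, since the members were recognised through their rise in these roots. GMFL01-08-I05-R_317 rose 542-fold, a log2 difference of 9.08 with a standard error (SE) of 0.20 (95% interval 393 to 747-fold). GMFL01-12-C15-R_181 rose 221-fold (163 to 299-fold). For BG155089.1_555 only a bound can be given, since its control roots were at background: the rise was at least 382-fold. Its measured geometric means were 2.56 and 3490. The adjusted p of 4.7e-06 (limma) belongs to that measured difference, and the bound itself was not tested. The bound replaces each control signal below the lowest one read as well above background on its array by that lowest signal.

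The nitrate reductase probes rose less and with a wider error. BF069531.1_458 rose 114-fold (log2 6.83, SE 0.63, adjusted p = 0.0034), with an interval from 40.9 to 315-fold. BU927103.1_508 rose 94.0-fold (32.6 to 271-fold) and GMFL01-21-N18-R_440 rose 71.5-fold (27.3 to 187-fold). Among the 32560 probes well above background on all root arrays, the 5 members measured there ranked 1, 4, 5, 6 and 7 by their rise. GMFL01-08-I05-R_317 was first. These ranks are a description too, since the members were recognised through their rise in these roots. Within the slide that held all nitrate root arrays, against the first control root array alone, the 6 log2 differences were 6.44 to 10.48, the highest being that of BG155089.1_555 against a control at background. With the slide as a block, in which that 1 control array carries the comparison, BU927103.1_508 (adjusted p = 0.058) and GMFL01-21-N18-R_440 (0.052) no longer passed. Without the second control root array the nitrate reductase probes rose by 6.87 to 7.60 on the log2 scale, and without the third by 5.59 to 6.26. The BU927103.1_508 value moved by more than 1.5 times in fold under either omission, and those of the other nitrate reductase probes without the second array.

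In nodules, the same treatment moved the members little. The 3 nitrate reductase probes rose 1.28-fold (BF069531.1_458, adjusted p = 0.018), 1.34-fold (BU927103.1_508, 0.025) and 1.29-fold (GMFL01-21-N18-R_440, 0.022). Of the nitrite reductase probes, GMFL01-08-I05-R_317 rose 1.24-fold (adjusted p = 0.017). BG155089.1_555 gave a ratio of 1.16 (interval 0.96 to 1.41) and GMFL01-12-C15-R_181 one of 1.07 (0.965 to 1.18), and neither passed the test. The 4 of 6 that passed compare with 16.7% of the 35252 probes tested that were raised in nodules, and ranks from 3945 to 11129 among 33730 probes place the members well inside the range of all probes. These calls depended on single arrays. By limma's adjusted p none passed without the first or without the third control nodule array (4 of 6 at an unadjusted p under 0.05 each time), 2 passed without the second control array, and the shares of all probes raised were then 9.45% to 10.7%. GMFL01-21-N18-R_440 was lost without the first nitrate nodule array (adjusted p = 0.054). The log2 differences were 0.27 to 0.49 for these 4 probes over the arrays left out. None passed either when all 12 arrays shared 1 estimate of the spread, with adjusted p from 0.15 to 0.73 for these 4 probes and 1 of 6 at an unadjusted p under 0.05, and 4.81% of all probes were then raised. The unpaired test of the methods passed 5 unadjusted, with 18.2% of all probes raised, and 2 after adjustment, with 10.8% raised. For the limma counts at an unadjusted p the share of all probes was not computed. Within the slide that held the control nodule arrays and the third nitrate array, the 6 differences were 0.12 to 0.65 on the log2 scale, all above 0.

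The responses of the organs were set against each other by the interaction term of a fit to all 12 arrays, coded as the nitrate effect in roots minus that in nodules. All 6 probes passed in the direction of a larger rise in roots, where 11.8% of 36425 probes did. This count is a description, since the contrast contains the root rise through which the members were recognised. The difference was 8.77 (SE 0.18) for GMFL01-08-I05-R_317 and 7.69 (SE 0.16) for GMFL01-12-C15-R_181 on the log2 scale. For BG155089.1_555 the root rise exceeded the nodule ratio at least 328-fold. The adjusted p of 2.2e-09 (limma) belongs to its measured difference and not to this bound. The nitrate reductase probes gave 6.47 (SE 0.72), 6.13 (SE 0.75) and 5.79 (SE 0.68), with adjusted p from 0.00088 to 0.0014. Leaving out any 1 of the 12 arrays kept all 6 past the threshold. Without the second control root array the nitrate reductase values were 7.24, 6.92 and 6.51, which moved each by more than 1.5 times in fold, and without the third 5.90, 5.48 and 5.22, which did so for BU927103.1_508. The contrast shares its root part with the nitrate comparison in roots, so its size repeats what the roots showed.

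**Figure D2:**
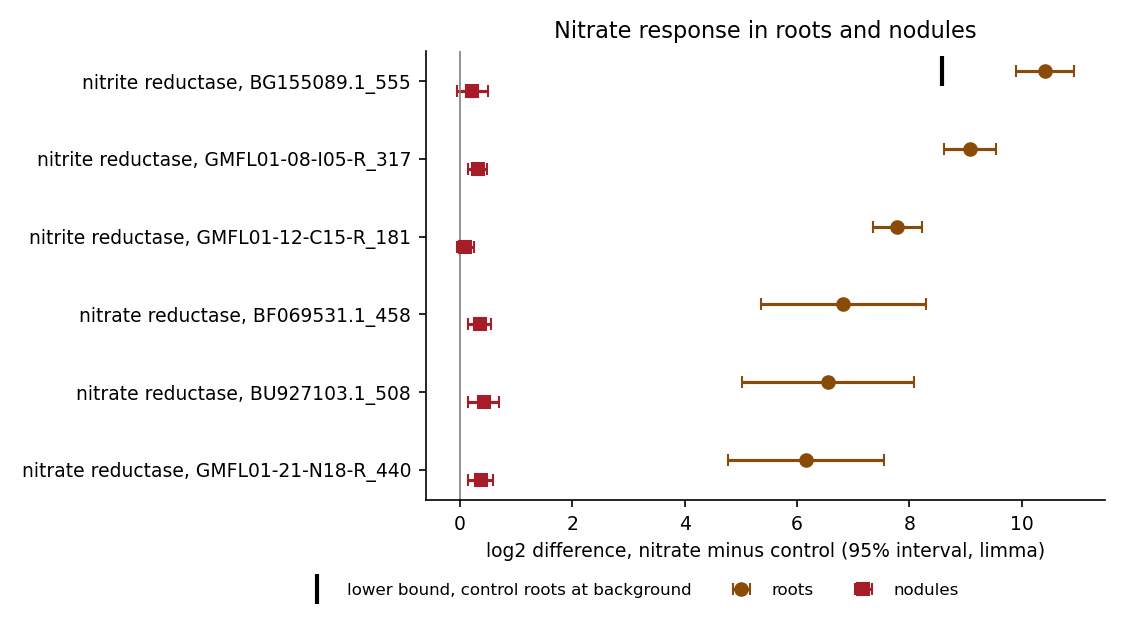
Log2 difference between nitrate and control arrays for the 6 probes in roots (circles) and nodules (squares), with 95% intervals from limma; the black mark is the lower bound for BG155089.1_555, whose control roots were at background. The root differences lie between 6.16 and 10.41 and the nodule differences between 0.10 and 0.42.

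Without nitrate, roots were below nodules for all 6 probes, where 39.0% of the 36145 probes tested were lower in roots. This count is a description, since the control root arrays also entered the list through which the members were recognised. GMFL01-08-I05-R_317 was 18.8-fold lower in control roots than in control nodules and GMFL01-12-C15-R_181 was 11.0-fold lower. BG155089.1_555 was at least 10.2-fold lower, with measured geometric means of 2.56 and 93.6. The adjusted p of 6.7e-06 (limma) belongs to that measured difference and not to the bound. The nitrate reductase probes were 13.4-fold (BF069531.1_458), 26.4-fold (BU927103.1_508) and 17.9-fold (GMFL01-21-N18-R_440) lower, with adjusted p of 0.0021, 0.00091 and 0.001. Both enzymes thus had more signal in the nodule than in the root of plants that had received no nitrate. Without the second control root array the nitrate reductase differences widened to between -4.52 and -5.51 on the log2 scale, and without the third that of BU927103.1_508 narrowed to -4.07. Under another background correction (normexp), which adds an offset of 50 to every signal, the log2 difference of BG155089.1_555 was -1.37. With all 12 arrays and the slide as a block all 6 still passed, at -3.35 to -5.07.

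Under nitrate the order of the organs was turned. Nitrite reductase was 32.0-fold (BG155089.1_555), 23.2-fold (GMFL01-08-I05-R_317) and 18.9-fold (GMFL01-12-C15-R_181) higher in roots than in nodules. Nitrate reductase was 6.60-fold (BF069531.1_458), 2.66-fold (BU927103.1_508) and 3.09-fold (GMFL01-21-N18-R_440) higher. All 6 passed (adjusted p from 2e-06 to 0.00027), where 33.9% of 35654 probes were higher in roots. This count too is a description, since the nitrate root arrays entered the list through which the members were recognised. The intervals of the nitrate reductase probes, of which the highest bound was 8.68-fold, lay below those of the nitrite reductase probes, of which the lowest bound was 16.0-fold. With all 12 arrays and the slide as a block the log2 differences were 1.94 to 5.13, and BU927103.1_508 (adjusted p = 0.16) and GMFL01-21-N18-R_440 (0.096) no longer passed. In that fit the first control root array alone ties the nitrate roots to another slide.

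The balance of the steps was read on each array as the mean log2 signal of the 3 nitrite reductase probes minus that of the 3 nitrate reductase probes. Since probes differ in brightness, only its differences between arrays have a meaning, and it is given relative to its mean in control nodules. A scaling of whole arrays does not change it. The balance in nitrate roots was 6.14, 5.90 and 4.98 times that of control nodules. Nitrate nodules gave 0.891, 0.965 and 0.811, and the control nodules themselves 1.07, 1.04 and 0.901. In control roots the values were 1.14, 0.35 and 2.11, so these arrays lay on either side of the nodules.

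Between nitrate and control roots the balance differed by 2.58 on the log2 scale, a 5.98-fold shift towards nitrite reductase, and the arrays of the groups did not overlap. The shift was 3.64-fold without the second control root array and 8.94-fold without the third. All 9 pairings of 1 nitrite reductase with 1 nitrate reductase probe went the same way, with differences of 0.96 to 4.25. The pairings reuse the same probes and are not independent of each other. Those with BG155089.1_555 rest here on control roots at background. Between nitrate roots and nitrate nodules the balance differed by 2.67 (6.37-fold), again in all 9 pairings, from 1.52 to 3.59. In nodules nitrate moved the balance by -0.17, less than the distance between arrays of 1 group, and the arrays overlapped, although all 9 pairings lay below 0 (-0.33 to -0.04). Control roots and control nodules differed by -0.08 with overlapping arrays, and this difference has no settled sign. It was 0.37 without BG155089.1_555, 1.01 with normexp and 0.64 without the second control root array. Normexp also lowered the difference between nitrate and control roots to 1.27, and leaving out BG155089.1_555 to 1.92. No test was made of this balance, which is a score over the members.

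**Figure D3:**
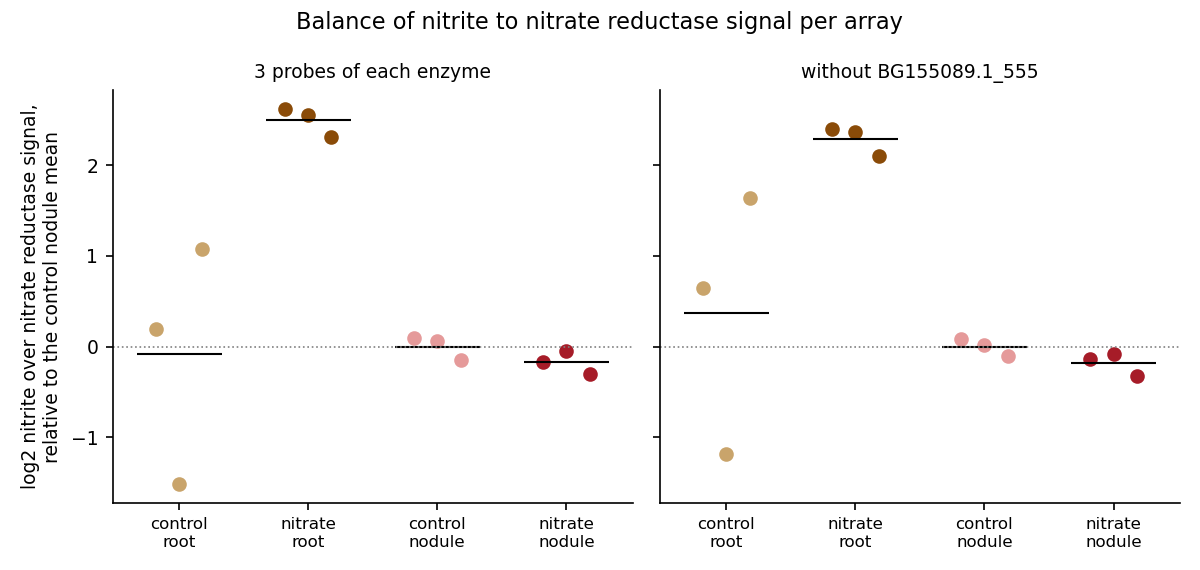
Log2 ratio of nitrite to nitrate reductase signal on each array, relative to its mean over the control nodule arrays, from all 6 probes (left) and without the probe at background in control roots (right); points are arrays, lines are group means. The nitrate root arrays lie above every other array, and the control root arrays are spread around the nodules.

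The nitrate reductase probes moved together across the control root arrays, over a far wider range than the nitrite reductase probes that could be measured there. The second array was highest and the third lowest for each nitrate reductase probe, with a ratio of 6.41 for BF069531.1_458, 7.36 for BU927103.1_508 and 5.93 for GMFL01-21-N18-R_440. Of the 33022 probes well above background on all control root arrays, 0.706%, 0.539% and 0.818% spanned at least as wide a range, and the median range was 1.69-fold. GMFL01-08-I05-R_317 and GMFL01-12-C15-R_181 ranged 1.27-fold and 1.20-fold over the same arrays, and BG155089.1_555 was at background on them. In 6.02% of all these probes the second array was highest and the third lowest. The second array was also the dimmest after scaling, and it shared its slide with the third, which was lowest for nitrate reductase. In nitrate roots the nitrate reductase probes ranged 1.24-fold to 1.39-fold, and in nodules 1.11-fold to 1.28-fold. Over all 12 arrays the log2 signals of the nitrite reductase probes correlated with each other at r of 0.996 to 0.998, those of nitrate reductase at 0.973 to 0.998, and probes of different enzymes at 0.891 to 0.975. These correlations describe 12 arrays in 4 groups that the nitrate roots dominate.

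Probes for the cofactors and the electron supply of these enzymes, 16 in all, were taken from the study's lists of changed probesets. Their direction is thus not independent evidence. The 16 include 1 for ferredoxin sulfite reductase, which serves sulfur assimilation instead. In roots 10 of the 16 rose, 1 fell and 5 did not pass, with a median log2 difference of 1.83 against 0.10 over all probes (0.854% raised and 1.71% lowered). In nodules 3 of the 15 tested rose, 3 fell and 9 did not pass, with a median of -0.14 against -0.08 (16.7% raised and 28.9% lowered). Uroporphyrin III methyltransferase (GMFL01-16-A20-F_423), which makes the precursor of siroheme, rose 15.5-fold in roots (log2 3.96, SE 0.25, adjusted p = 0.00081). In nodules its ratio was 1.14 (adjusted p = 0.38), and without nitrate it was lower in roots than in nodules (log2 -2.04, adjusted p = 0.00011).

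Both probes for molybdopterin biosynthesis, the route to the molybdenum cofactor, rose in roots. CO985443.1_680 rose 4.23-fold in roots and 1.33-fold in nodules (adjusted p = 0.0067 and 0.014). CA936913.1_509 was well above background in nitrate roots only, at a mean of 14.3, and its rise was at least 1.56-fold. Both ferredoxin-NADP reductase probes rose in roots, 7.96-fold for GMFL01-03-P24-R_401 and 5.33-fold for GMFL01-30-C15-R_414. In nodules GMFL01-03-P24-R_401 fell to a ratio of 0.882 (adjusted p = 0.044), and GMFL01-30-C15-R_414 gave the same ratio and missed the threshold (0.054). The ferredoxin probes differed from each other. BE803085.1_81 gave a ratio of 2.23 in roots that did not pass (adjusted p = 0.12) and fell to 0.732 in nodules (0.019). GMFL01-10-D22-R_611 rose 2.18-fold in nodules (adjusted p = 0.0036) and gave 0.743 in roots (0.47).

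Glucose-6-phosphate dehydrogenase opens the oxidative pentose phosphate pathway, and 3 of its 5 probes rose in roots by 11.0 to 12.2-fold (BQ094170.1_453, BI968161.1_483 and BQ629590.1_508). None of these 3 passed in nodules, where their ratios were 0.861 to 0.906. GMFL01-18-L05-R_174, for the same enzyme, rose 2.42-fold in nodules (adjusted p = 0.0024) and gave 0.954 in roots (0.89). BQ452515.1_362 fell in roots to a ratio of 0.375 (adjusted p = 0.045). Probes of 1 enzyme name thus moved in different directions within 1 organ. The next NADPH-producing enzyme, 6-phosphogluconate dehydrogenase, rose 2.97-fold and 2.75-fold in roots on 2 probes, while AI965742.1_427 gave 2.70 and missed the threshold (adjusted p = 0.096). Ferredoxin sulfite reductase (BI969667.1_666), which also uses siroheme and ferredoxin but serves sulfur assimilation, gave a ratio of 1.74 in roots (adjusted p = 0.20) and fell to 0.353 in nodules (0.0052).

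**Figure D4:**
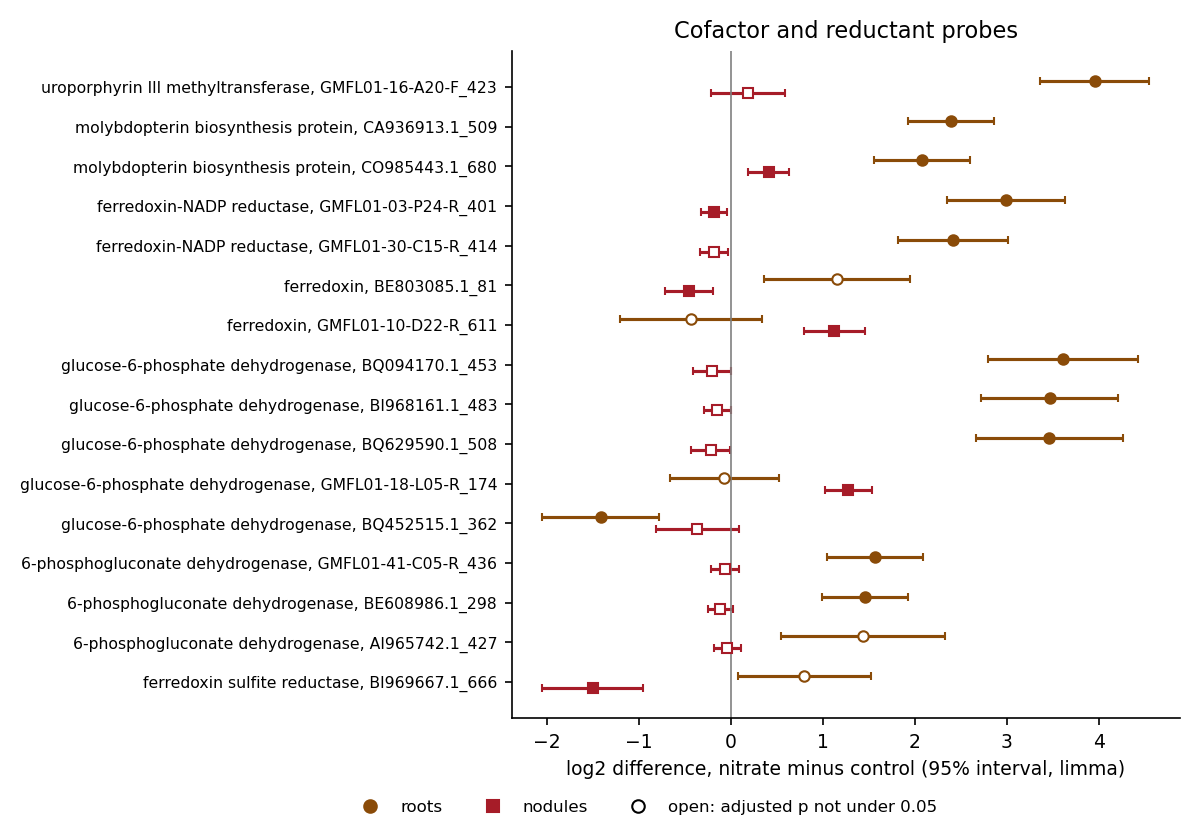
Log2 difference between nitrate and control arrays, with 95% intervals from limma, for the 16 probes of cofactor and electron supply in roots (circles) and nodules (squares); open symbols did not pass an adjusted p of 0.05, and the root value of CA936913.1_509 is measured against control roots at background. The largest root rise of these probes is 3.96, that of uroporphyrin III methyltransferase. Ferredoxin sulfite reductase, an enzyme of sulfur assimilation, is included.

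The probes whose pattern was most like each enzyme's were sought among 36371 probes by Pearson's r of log2 signals over the 12 arrays. For nitrite reductase the closest was GMFL01-10-M15-R_587 (r = 0.991), for which no description was read. Its mean signal was 135.5 ± 22.9 (SD, n = 3) in control roots, 65990 ± 27900 in nitrate roots, 3731 ± 472 in control nodules and 2767 ± 802 in nitrate nodules. Next came uroporphyrin III methyltransferase (GMFL01-16-A20-F_423, r = 0.984). AW164701.1_397 and GMFL01-08-P22-R_324 followed (both r = 0.978), described only as a poplar clone and a soybean cDNA clone. In control roots AW164701.1_397 had a mean of 13.7, with only 2 of 3 arrays well above background. The ferredoxin-NADP reductase probe GMFL01-03-P24-R_401 came after them (r = 0.977). The uroporphyrin III methyltransferase and ferredoxin-NADP reductase probes were already among those of cofactor and electron supply. Descriptions were read only from the study's lists of changed probesets. Nitrate roots dominate these arrays, so r is a description here and for nitrate reductase, and a shared function was not tested.

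For nitrate reductase the closest was BG551225.1_311 (r = 0.990), without a description, with means of 14.1 ± 12.9 in control roots, where only 1 of 3 arrays was well above background, and 2579 ± 1110 in nitrate roots (SD, n = 3). In nodules its means were 253 ± 22 without nitrate and 318 ± 53.6 with it. The next 3 are all described as malate dehydrogenase, the enzyme that interconverts malate and oxaloacetate: BG156137.1_529 (r = 0.985), GMFL01-33-M09-R_411 (r = 0.985) and BI968929.1_166, the nodule-enhanced form of pea (r = 0.980). BG156137.1_529 read 2115 ± 420, 9480 ± 418, 5515 ± 420 and 6807 ± 212 in control roots, nitrate roots, control nodules and nitrate nodules. Its groups followed the order of the nitrate reductase probes over a far narrower range. GMFL01-08-P22-R_324 (r = 0.968) was in both lists.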

How the data were processed

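RNA of 12 samples was hybridised to 1-colour soybean arrays with 44165 spots. The values used were deposited as processed signals, an intensity per spot. Feature Extraction 10.5.1.1 per the file headers (9.5.1 in the submitters' processing notes) had corrected them for background within each array, with no scaling between arrays. The deposited series table holds the same values (529980 of 529980 equal). Outlier spots, 106 over all arrays, were left out. Signals were scaled to an average of 2500, the target of the study's methods, and taken to log2. Contrasts were fitted with limma 3.58.1 (lmFit, eBayes) in R 4.3.3, each on its own groups and the interaction on 12 arrays, over probes that every array of 1 or more of its groups read well above background. Benjamini-Hochberg adjustment ran over all probes of a fit, and a probe passed at an adjusted p under 0.05. With 3 arrays against 3, an exact permutation test cannot go below p = 0.1. The number of arrays limits the precision.

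Titles gave the groups and replicate numbers, although 1 control root record carries another number elsewhere. Deviations of same-numbered control and nitrate root arrays from their group means correlated at 0.298, 0.323 and 0.545, so the numbers were taken to pair the root arrays, as a feature of the data that the labels do not state. The main fits nevertheless used no block, so the root values given ignore this pairing, and the replicate block was run as an alternative. Members and lists were chosen with earlier results of these data known. The rule for named probes took the 6 members and, for each enzyme, the 5 probes with the highest r. It also took 16 probes of cofactor and electron supply from the study's tables, ferredoxin sulfite reductase included. The marker was nodulin-21, and leghemoglobin probes were not analysed here. Alternatives were scaling to the 75th percentile, quantile normalization, normexp (offset 50), no filter, the series table, all arrays in 1 fit, a block for replicate number or for slide, each array left out, and the unpaired test of the methods. A fit of all 12 arrays with the slide as a block was added after the data were seen. Fits were also run on simulated data with independent noise on each array. Those data held no slide effect and no pairing of arrays, so the runs do not cover either. Probe sequences were not used here.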

Additional observations from a re-analysis of the deposited data

Results flagged for a closer look

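The nitrate effect differed between the organs, by the interaction term over all 12 arrays (limma, adjusted p under 0.05), for 21 probes. These were all 6 members, and of the 16 probes of cofactor and electron supply 13 higher and 2 lower, with 1 not past the threshold. Of all 36425 probes tested, 11.8% were higher and 8.01% lower. The counts are a description, since these probes came from the study's lists of changed probesets. The values below are log2 differences, coded as the effect in roots minus the effect in nodules. For nitrite reductase they were 10.20 (BG155089.1_555, whose control roots were at background, so that only the bound of 328-fold holds), 8.77 (GMFL01-08-I05-R_317) and 7.69 (GMFL01-12-C15-R_181). For nitrate reductase they were 6.47 (BF069531.1_458), 6.13 (BU927103.1_508) and 5.79 (GMFL01-21-N18-R_440).

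Among the cofactor probes, the difference was 3.77 for uroporphyrin III methyltransferase and 2.09 and 1.67 for molybdopterin biosynthesis, of which the first value (CA936913.1_509) sets nitrate roots against groups at background. The ferredoxin-NADP reductase probes gave 3.17 and 2.60. The ferredoxin probes gave opposite signs, 1.61 for BE803085.1_81 and -1.56 for GMFL01-10-D22-R_611. Of the glucose-6-phosphate dehydrogenase probes, BQ094170.1_453, BI968161.1_483 and BQ629590.1_508 gave 3.81, 3.61 and 3.68, and GMFL01-18-L05-R_174 gave -1.35. The 6-phosphogluconate dehydrogenase probes gave 1.63 (GMFL01-41-C05-R_436), 1.57 (BE608986.1_298) and 1.47 (AI965742.1_427). Ferredoxin sulfite reductase, which serves sulfur assimilation and was counted with these probes, gave 2.30. Its ratio in roots did not pass, and it fell in nodules.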

How the results depend on the processing

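No probe of either enzyme changed direction under any alternative. The 6 passing probes of the organ difference without nitrate and of the interaction passed under every alternative, those under nitrate under all but the fit of 12 arrays with the slide as a block, which left 4, and those in roots when any 1 array was left out (6 of 6 each time). In roots the slide block and the adjusted unpaired test of the methods each left 4. With the replicate block 6 probes passed in roots, 4 in nodules, and 6 in each organ comparison and the interaction, so the block changed no call of a member. In nodules the same-numbered arrays correlated at 0.118, 0.006 and 0.099 and share only a number.

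The nodule count was 4 (16.7% of all probes raised). It was 0 with all 12 arrays in 1 fit (4.81%), 0 with the slide as a block added to that fit (4.69%), 2 under the adjusted unpaired test (10.8%) and 0 to 4 when each array was left out (9.45% to 17.1%). The cause was not tested. For the balance, the difference between nitrate and control roots was 1.27 with normexp and 1.86 to 3.16 over the arrays left out. That between nitrate roots and nitrate nodules was 2.47 with normexp and 2.47 without BG155089.1_555, and 2.61 to 2.76 over the arrays left out. In nodules the range was -0.25 to -0.11. For control roots minus control nodules the sign turned, to 1.01 with normexp, 0.37 without BG155089.1_555 and 0.64 without the second control root array, with a range of -0.66 to 0.64.

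Normexp lowered the root rise of BG155089.1_555 to 5.96 and of BF069531.1_458 to 5.53 on the log2 scale. It moved the median of all probes from -0.29 to -0.09 between control roots and control nodules, and quantile normalization moved it from 0.15 to 0.01 for the interaction. Quantile normalization changed the shares of all probes raised and lowered to 3.73% and 4.21% in roots and to 22% and 23.7% in nodules. Near background, the depth of an array limits BG155089.1_555 and CA936913.1_509 to bounds.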
